A study of Arabidopsis thaliana with 6 samples.

Results

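Calcium sensor genes were examined in Arabidopsis thaliana plants of 2 genotypes, both short of oxygen, to set the decrease of CML38 in 35S:PCO1 plants beside the other sensors measured on the same arrays. The genes were taken by symbol, as members of the calmodulin-like (CML), calmodulin (CAM), calcium-dependent protein kinase (CPK), calcineurin B-like (CBL) and CBL-interacting protein kinase (CIPK) families. Of 76 genes whose current symbol carries one of these names, 7 were paired with a probe set that names 1 gene, out of 13356 genes with such a probe set. All 7 are calmodulin-like genes, namely CML23, CML30, CML37, CML38, CML41, CML42 and CML43. No CAM, CPK, CBL or CIPK gene is paired with a probe set that names 1 gene in the annotation used here. Probe sets that name several genes were not searched for them. Only 8 of the 76 genes carry a CML symbol. Calmodulin-like genes listed under another name were not searched for, apart from CML39. The calmodulins and the calcium-dependent kinases were therefore not analysed here. The values below describe these calmodulin-like genes, and neither their whole family nor calcium sensors at large.

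The 35S:PCO1 group comprised 3 arrays of plants that overexpress PLANT CYSTEINE OXIDASE 1 from the cauliflower mosaic virus 35S promoter, which is active in most plant tissues, and the wild-type group comprised 3 arrays of plants without the transgene. All plants of both genotypes had spent 4 h in the dark at 5% oxygen after growth in short days of 8 h light. Their age is labelled 4 weeks in one place and 5 weeks in another, and the tissue is entered as whole rosette while the extraction used whole plants. The labels do not say how many transgenic lines were used or whether replicates came from separate plants, and the p-values then reflect the variation among these samples only, some of which may be technical. The level of PCO1 was not analysed here, since it is not listed in this annotation. Its probe set may be among those without a name, and the transgene was not checked. No plants in normal air were analysed here, and the values therefore compare genotypes under low oxygen and do not measure induction.

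Calmodulin-like proteins bind calcium through EF-hands, helix-loop-helix motifs, and change shape when cytosolic calcium rises, which lets them act on partner proteins without being enzymes themselves. Oxygen shortage raises cytosolic calcium in plant cells, and CML38 is known in Arabidopsis as a gene of the core hypoxia response whose protein gathers in stress granule-like bodies of oxygen-deprived cells. The activators of hypoxia genes, ethylene response factors of group VII, begin with a cysteine that plant cysteine oxidases oxidise when oxygen is present, after which the factors are degraded. CML37 and CML39 are the closest relatives of CML38.

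The arrays were alike in general level, with medians between 5.86 and 5.91 on the log2 scale, and correlated with each other at 0.994 to 0.999 across 22746 tested probe sets. On the first principal component (34.1% of the variance) the genotypes were separate, at 5.80 to 11.6 for 35S:PCO1 and -18.8 to -0.956 for wild type. Wild type replicate 2 lay away from the rest on it, at -18.8 against -6.13 to 11.6 for the other arrays. This array also had the highest 3 prime over 5 prime signal of the GAPDH control, a log2 difference of 0.813 against 0.271 to 0.435. On the second component (30.6%) the outlying array was wild type replicate 3, at 17.4 against -11.0 to 4.56 on the rest. Changes without 1 array are given beside CML38, CML42, CML30 and CML43. Among the partner genes they were examined only for GLR2.8, GLR2.9, IQD23, iqd21 and CRT1b. They are given where leaving out 1 array moved the change by over 1.5 times. For the other partner genes, GLR3.3, GLR3.6 and iqd32 among them, they were not examined. Leaf markers were bright, with the mean of the 2 measured of 7 listed (LHCB4.1 and PSAN) at 12.7 to 12.8 on 35S:PCO1 arrays and 12.8 to 12.9 on wild-type arrays. The mean of the 3 measured of 4 listed root markers (PYK10, EXPA7 and EXPA18) was 5.85 to 5.87 on 35S:PCO1 arrays and 5.90 to 6.03 on wild-type arrays. None of the 4 flower and 4 seed markers listed was paired with a probe set that names 1 gene.

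Among the 7 calmodulin-like genes measured, only CML38 (AT1G76650) was called at an adjusted p under 0.05, and it was lower in 35S:PCO1. Over all tested probe sets, 0.264% were called. Its signal was 4.19, 4.58 and 4.43 on the 3 35S:PCO1 arrays, against 5.68, 5.72 and 5.68 on the 3 wild-type arrays. The genotypes were far from overlapping, with a gap of 1.10 between the highest 35S:PCO1 and the lowest wild-type value. The mean was 4.40 ± 0.20 (SD, n = 3) in 35S:PCO1 and 5.69 ± 0.021 (SD, n = 3) in wild type, a log2 change of -1.29 (SE 0.094, adjusted p = 0.00064 by limma). This made CML38 2.45-fold lower, with a 95% interval from 2.11-fold to 2.84-fold lower.

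Only 15 of the 22746 tested probe sets had a change as low as that of CML38 or lower. The spread of CML38 was uneven between the genotypes. Its wild-type SD lay at the 5.15th percentile of all tested probe sets and its 35S:PCO1 SD at the 95.7th percentile. The 3 35S:PCO1 values spread over 0.39 on the log2 scale, whereas the wild-type values spread over 0.038. Without wild type replicate 2 the log2 change of CML38 was -1.28, and without wild type replicate 3 it was -1.30. The 3 root markers had log2 changes from -0.18 to -0.084. The leaf markers LHCB4.1 and PSAN were also lower, at -0.056 and -0.10. None of these markers was called, and the part of tissue shares in the decrease of CML38 was not tested. In RNA of whole rosettes or whole plants, fewer cells that express a gene and less RNA of it per cell cannot be told apart.

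**Figure D1:**
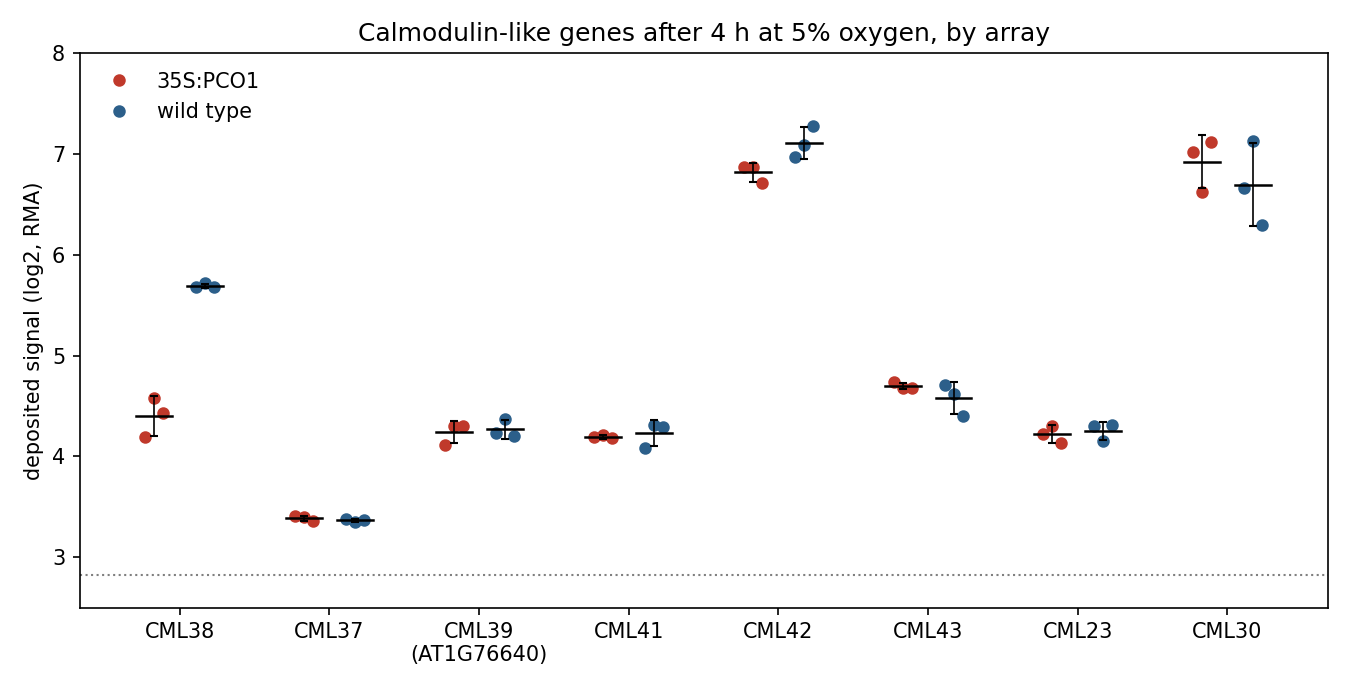
Deposited signal (log2, RMA) of the 7 calmodulin-like genes and of CML39 on each array, 35S:PCO1 in red and wild type in blue, with the mean as a bar and 1 SD as error bars (n = 3 per genotype). The dotted line marks the lowest mean signal of any tested probe set, 2.82. The genotypes lie 1.10 apart for CML38 and 0.092 apart for CML42, and overlap for the other 6 genes shown.

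The closest relatives of CML38 were not called. CML37 (AT5G42380), which is known in Arabidopsis for roles in drought signalling and in defence against herbivores, had 3.40, 3.40 and 3.36 on 35S:PCO1 arrays and 3.38, 3.35 and 3.37 on wild-type arrays. These ranges overlapped, and the log2 change was 0.020 (SE 0.055, 95% interval from -0.10 to 0.14, adjusted p = 0.94 by limma). The mean signal of this probe set was at the 4.97th percentile of all tested probe sets, near the bottom of the scale, where RMA values move little, so a change of CML37 at low level may not be detectable with it.

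CML39 carries no CML symbol in the tables used here and was thus not among the 7 genes. It was identified as AT1G76640 through its synonym, although the same synonym is also listed under CML37. It lies directly beside CML38 in the gene order of the TAIR10.1 annotation, and its protein is known for a role in seedling establishment. Its signal was 4.11, 4.30 and 4.30 on 35S:PCO1 arrays and 4.23, 4.37 and 4.20 on wild-type arrays, a log2 change of -0.029 (SE 0.078, 95% interval from -0.21 to 0.15, adjusted p = 0.94 by limma). The genotypes overlapped at CML39, and its mean signal was at the 24.9th percentile. On the other side of CML38, AT1G76660 had a log2 change of -0.014 (SE 0.056), and neither neighbour of CML38 was called.

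The change of CML38 was set against that of each of these relatives by taking the log2 difference on every array. The change of CML38 was lower than that of CML37 by a difference of -1.31 (95% interval from -1.53 to -1.09) and lower than that of CML39 by a difference of -1.26 (95% interval from -1.43 to -1.10). For both of the 2 pairs the exact two-sided permutation p was 0.1, also after adjustment over the pairs, the smallest value that 3 against 3 arrays can give. Since CML37 and CML39 are dim and changed little between the genotypes, these differences largely restate the decrease of CML38. They are no independent evidence that the relatives responded differently.

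**Figure D2:**
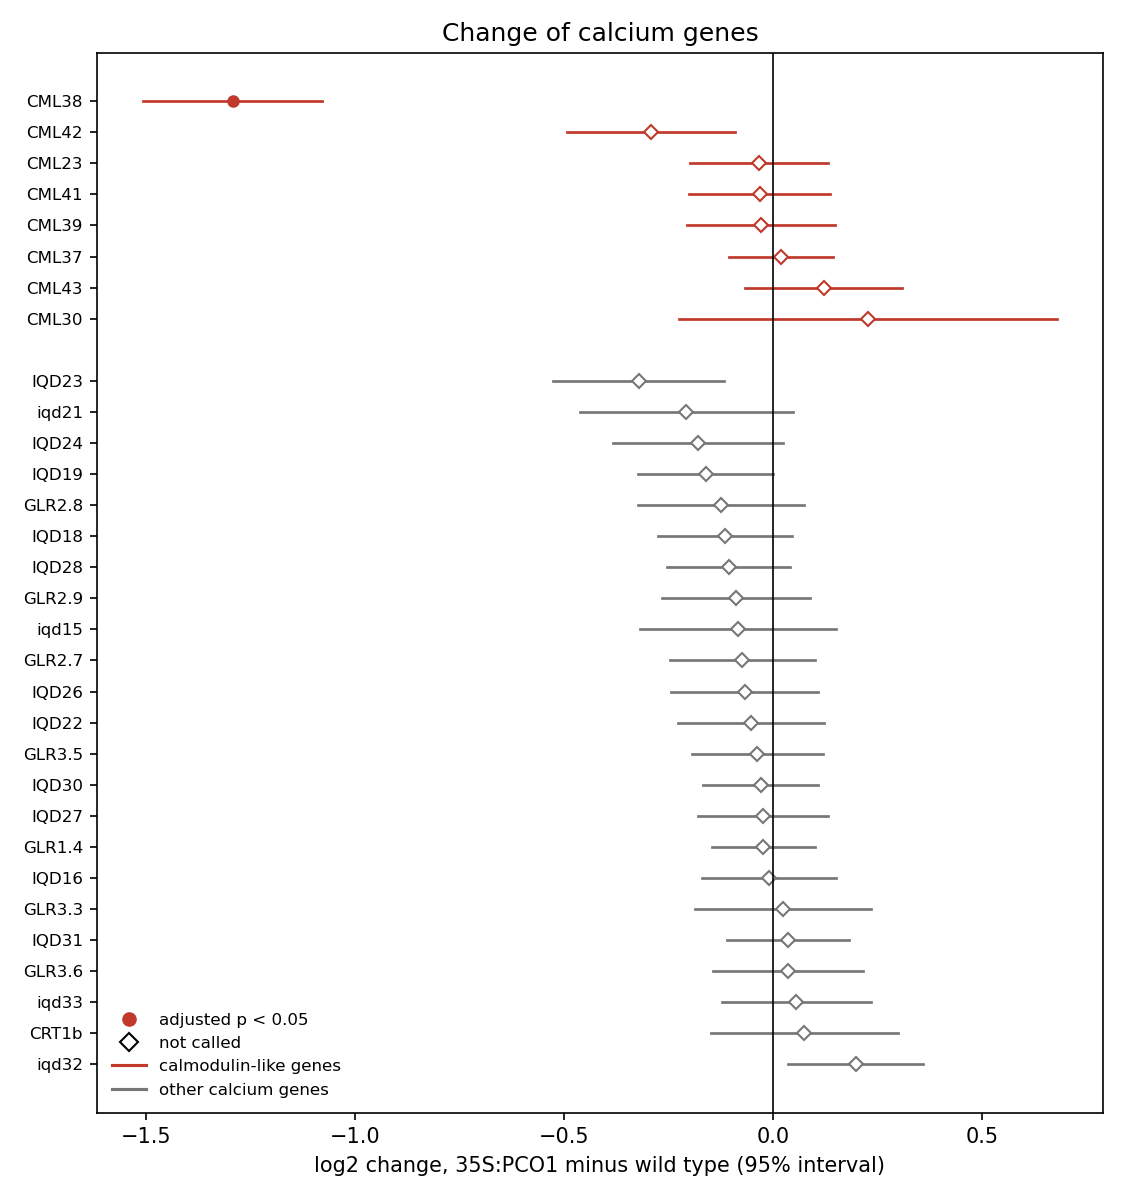
Log2 change (35S:PCO1 minus wild type) with its 95% interval for the calmodulin-like genes (red) and the 23 other calcium genes (grey), with filled circles for genes called by limma at an adjusted p under 0.05 and open diamonds for the rest. CML38 at -1.29 is the only called gene shown, and every other change lies between -0.32 and 0.23.

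CML42 (AT4G20780), which is known in Arabidopsis for its part in leaf hair branching and in the response to feeding insects, was the other gene whose genotypes did not overlap. Its signal was 6.87, 6.87 and 6.71 on 35S:PCO1 arrays and 6.97, 7.09 and 7.27 on wild-type arrays. Every 35S:PCO1 array thus lay below every wild-type array, by a gap of only 0.092. The same order, lower in 35S:PCO1 without overlap, held in 10.5% of all tested probe sets, and separate groups in either direction in 16.2%. The log2 change was -0.29 (SE 0.088, 95% interval from -0.49 to -0.091), with an unadjusted p of 0.0096 and an adjusted p of 0.31 by limma over all probe sets, so CML42 was not called. A change as low as that of CML42 or lower was found in 1.34% of probe sets. Without wild type replicate 2 the log2 change of CML42 was -0.30, and without wild type replicate 3 it was -0.21 (adjusted p = 0.40 by limma).

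CML30 (AT2G15680), whose protein is known to be targeted to mitochondria, varied more between arrays of the same genotype than any of the others. It had 7.02, 6.62 and 7.12 on 35S:PCO1 arrays and 6.66, 7.12 and 6.30 on wild-type arrays. The highest values of both genotypes were nearly equal, and the lowest of all was wild type replicate 3. The log2 change was 0.23 (SE 0.20, 95% interval from -0.22 to 0.68, adjusted p = 0.75 by limma), and its SE was at the 99.3rd percentile of all tested probe sets. It was 0.44 without wild type replicate 2 and 0.029 without wild type replicate 3, and omitting 35S:PCO1 replicate 2 gave 0.38, while omitting 35S:PCO1 replicate 3 gave 0.13. The size of this change thus depended on single arrays, and its interval held changes in either direction.

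CML43 (AT5G44460), known for a role in the defence response to bacterial pathogens, had 4.73, 4.68 and 4.68 on 35S:PCO1 arrays and 4.70, 4.62 and 4.40 on wild-type arrays. Its genotypes overlapped, and wild type replicate 3 was the low value. The log2 change was 0.12 (SE 0.083, 95% interval from -0.066 to 0.31, adjusted p = 0.66 by limma), and it was 0.034 without wild type replicate 3 and 0.19 without wild type replicate 1.

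CML41 (AT3G50770) and CML23 (AT1G66400) had the smallest changes apart from CML37. CML41, whose protein is known at plasmodesmata, where it promotes callose deposition during immunity, had 4.20, 4.22 and 4.18 on 35S:PCO1 arrays and 4.08, 4.31 and 4.29 on wild-type arrays. The 35S:PCO1 values lay inside the wild-type range, and the log2 change was -0.032 (SE 0.074, 95% interval from -0.20 to 0.14, adjusted p = 0.93 by limma). CML23, known together with its close relative CML24 for effects on flowering time and nitric oxide levels, had 4.23, 4.30 and 4.13 on 35S:PCO1 arrays and 4.31, 4.15 and 4.31 on wild-type arrays. Its genotypes overlapped as well, and the log2 change was -0.034 (SE 0.072, 95% interval from -0.20 to 0.13, adjusted p = 0.92 by limma).

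As a group, 1 of the 7 calmodulin-like genes was called lower and none was called higher, while 0.264% of all tested probe sets were called, 0.193% lower and 0.0703% higher. With so few genes, that share rests on CML38 alone, whose decrease was known from earlier results of these data. At an unadjusted p under 0.05 by limma, 2 of the 7 (CML38 and CML42) passed, against 10.4% of all tested probe sets. Since the decrease of CML38 was known beforehand, no excess is read from this count. The changes were negative in 4 genes and positive in 3. Their median was -0.032, and without CML38 it was -0.0061, close to the median of -0.012 over all tested probe sets.

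Dimness limits what these probe sets can show. Of the 7 genes, 5 had a mean signal below the median of all tested probe sets, and only CML30 and CML42 had a mean signal above 6 on the log2 scale. The mean signal of CML38 itself was at the 38.6th percentile, and its 35S:PCO1 mean of 4.40 was in the lower part of the scale, where RMA compresses differences, so the fold may understate the decrease. No detection calls were used here, and a low signal does not show that a transcript was absent. The SE of CML23, CML37 and CML41 was between 0.055 and 0.074, near or under the median SE of 0.073 over all probe sets. The low signal of CML37 leaves little room for a further fall on this scale. CML23 and CML41 were at the 24.5th and 24.0th percentiles of mean signal. That is still the lower part of the scale, where RMA compresses differences. The small changes of these 3 genes therefore do not show that their transcripts lacked a decrease like that of CML38.

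**Figure D3:**
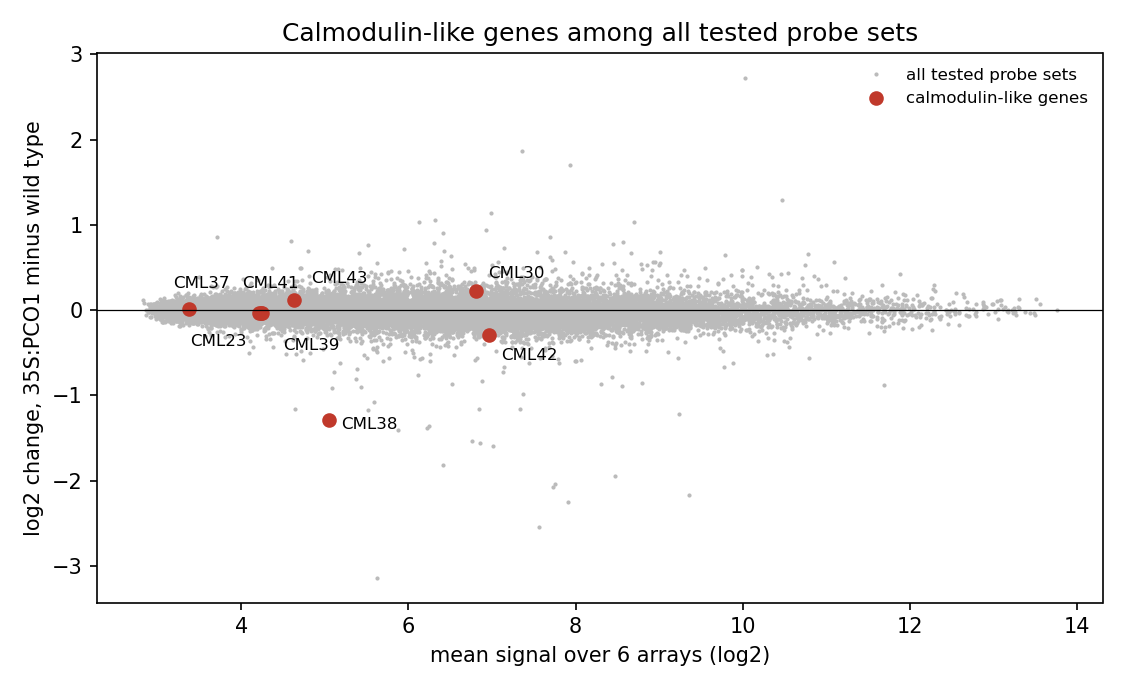
Log2 change (35S:PCO1 minus wild type) against mean signal over the 6 arrays (log2) for all 22746 tested probe sets (grey) and for the 7 calmodulin-like genes and CML39 (red). CML38 lies at -1.29, a change that 15 probe sets including it reached or passed downward, and CML23, CML37, CML39 and CML41 lie at low signal close to 0.

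The sensors act downstream of calcium channels and upstream of calmodulin-binding proteins, and these partner genes were described from lists of symbols. Of the lists, 23 genes were measured, and none was called in either direction by limma, with 2 of the 23 at an unadjusted p under 0.05 against 10.4% of all tested probe sets. Their median log2 change was -0.053, against -0.012 over all tested probe sets. The changes, 17 negative and 6 positive, ranged from -0.32 to 0.20. The share of negative changes over all tested probe sets was not counted, so no lean is read from these signs. No gene of the calcium pumps and exchangers, and none of the oxidases and ion transporters that CPK and CIPK kinases regulate, was paired with a probe set here.

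Glutamate receptor-like channels, some of which carry calcium signals from wounded leaves, accounted for 7 of these genes. Their median log2 change was -0.037, with 5 negative and 2 positive, and no genotypes were separate. The changes of largest size were those of GLR2.8, at -0.13 (SE 0.087, adjusted p = 0.68 by limma), and GLR2.9, at -0.088 (SE 0.078, adjusted p = 0.76 by limma). These sizes depended on single arrays. GLR2.8 was at -0.034 without wild type replicate 3 and at -0.21 without wild type replicate 2, and GLR2.9 was at -0.012 without 35S:PCO1 replicate 3. GLR3.3 and GLR3.6, known for wound-induced electrical and calcium signals, had 0.024 (SE 0.093) and 0.036 (SE 0.079). Both were chosen for mention after their values were seen, and their dependence on single arrays was not examined.

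The IQD genes encode proteins with IQ motifs, which bind calmodulin and calmodulin-like proteins, and many of these proteins sit on microtubules. All 15 measured genes of the calmodulin-binding list were of this family. Their median log2 change was -0.068, against -0.012 over all tested probe sets. Of the 15 changes 12 were negative, a count given without the share over all probe sets and not read as a lean. IQD23 had 5.66, 5.42 and 5.68 on 35S:PCO1 arrays and 6.00, 5.94 and 5.78 on wild-type arrays. Its genotypes did not overlap, and the log2 change was -0.32 with an SE of 0.090 (unadjusted p = 0.0063, adjusted p = 0.29 by limma). For the gene listed as iqd21 the log2 change was -0.21 with an SE of 0.11 (adjusted p = 0.58 by limma). It was -0.13 without wild type replicate 2, and also without 35S:PCO1 replicate 3. In the opposite direction, the log2 change of iqd32 was 0.20 with an SE of 0.071 (adjusted p = 0.40 by limma), a gene chosen for mention after its values were seen. In 4 of the 15 genes the genotypes did not overlap, against 16.2% of all tested probe sets.

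CRT1b, which encodes a calreticulin, a calcium-binding chaperone of the endoplasmic reticulum, was the single gene of its list measured. It had 8.92, 8.66 and 8.96 on 35S:PCO1 arrays and 8.82, 8.88 and 8.62 on wild-type arrays, which overlapped, and its log2 change was 0.074 with an SE of 0.098 (adjusted p = 0.85 by limma). Without wild type replicate 3 that change was -0.0010, and with 1 other array left out it ranged up to 0.17.

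The decrease of CML38 did not rest on 1 array. With each array left out in turn, its log2 change ranged from -1.38 to -1.19, and its adjusted p was at most 0.012 by limma. In the same fits the log2 change of CML42 ranged from -0.36 to -0.21 and stayed negative without passing the threshold, and that of CML30 ranged from 0.029 to 0.44.

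**Figure D4:**
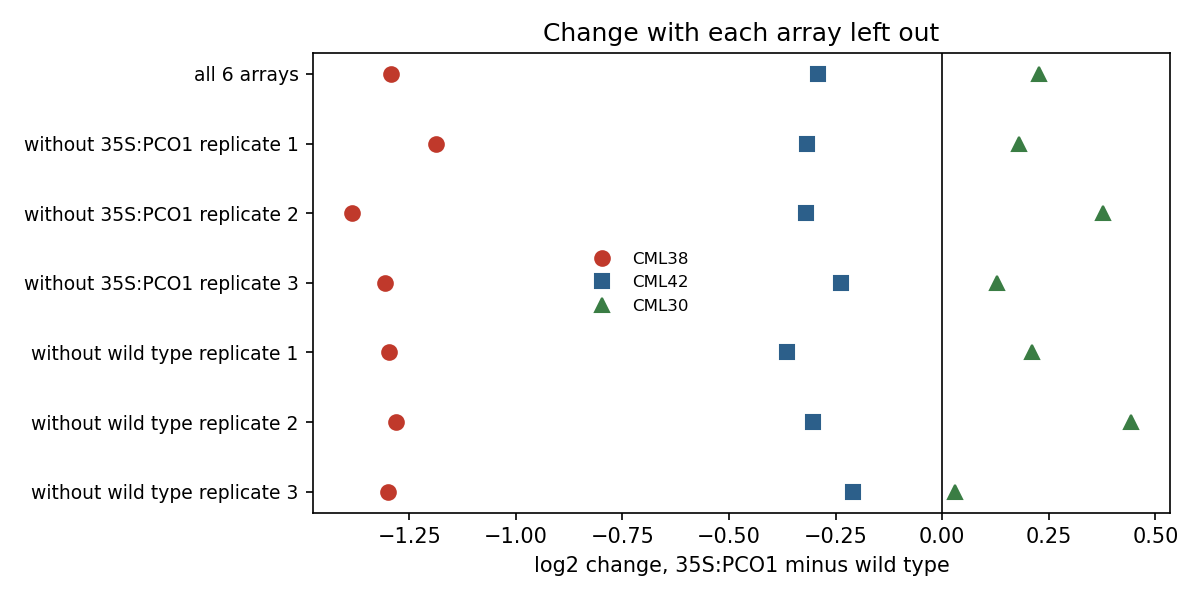
Log2 change (35S:PCO1 minus wild type, horizontal axis) of CML38 (circles), CML42 (squares) and CML30 (triangles) with all 6 arrays and with each array left out in turn. CML38 stays between -1.38 and -1.19, CML42 between -0.36 and -0.21, and CML30 moves between 0.029 without wild type replicate 3 and 0.44 without wild type replicate 2.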

How the data were processed

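The authors deposited 1 log2 value per probe set and array, made with RMA, per the submitters' processing notes; version, software and probe definition are not given in the sources used here. In RMA, quantile normalization removes any shift common to an array, and low values are compressed. Of 22810 probe sets, 64 controls were left out. Groups and replicate numbers came from the sample titles.

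Genes were named from the platform annotation, updated through the TAIR10.1 gene table: 13513 probe sets name 1 gene, 503 several (not used for names), and 8730 are not listed. Where a gene had several probe sets the brightest on average was taken, and each of the 7 genes had 1. No coordinates or sequences are printed, because no genome or sequence table was used.

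All 22746 probe sets were fitted in R 4.3.3 with limma 3.58.1 (lmFit, eBayes) and no covariates, two-sided, with Benjamini-Hochberg adjustment over all of them and no filter on dim values, and called at an adjusted p under 0.05. Changes are 35S:PCO1 minus wild type. The number of arrays limits the precision. The procedure was tested on simulated data. The members and lists were chosen with earlier results of these data known. All members, CML39, the called (or else the 2 most changed) genes of each other calcium list, and tissue markers are named. Lists have counts and medians only.

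The alternatives tried were a replicate block, median centring, a second quantile normalization, the trend and robust options of eBayes, array weights, removal of probe sets up to the 40th percentile of mean signal, a threshold of 0.1, all probe sets of a gene averaged, and each array left out.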

Additional observations from a re-analysis of the deposited data

How the results depend on the processing

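CML38 fell, and was the only 1 of the 7 calmodulin-like genes called, in every alternative that held its probe set. Its log2 change was from -1.38 to -1.19, with an adjusted p from 9.7e-05 to 0.014 by limma. When probe sets up to the 40th percentile of mean signal were removed, CML38 and 4 others dropped out, and of the 2 genes left (CML30 and CML42) 0 were called. Same-numbered arrays did not deviate together (correlations of -0.059, -0.22 and -0.26). With 3 arrays per genotype, these correlations cannot show whether same-numbered samples were paired. With the replicate block, CML38 had an adjusted p of 0.014 by limma, and 26 probe sets were called in all, against 60 without it. The count over all probe sets was 255 with array weights and ranged from 23 to 60 with 1 array left out (24 without 35S:PCO1 replicate 1, 33 without 35S:PCO1 replicate 3 and 23 without wild type replicate 1). The log2 change of CML41 was 0.032 with array weights. With 1 array left out, changes near 0 turned sign, ranging from -0.11 to 0.0095 for CML41, from -0.086 to 0.010 for CML23, from -0.064 to 0.034 for CML39 and from -0.0010 to 0.17 for CRT1b; the cause was not tested. None of the 23 other calcium genes was called by limma in any alternative, where the lowest adjusted p of IQD23 was 0.079. The median change of the calmodulin-like genes ranged from -0.042 to 0.017.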
